A study of Mus musculus with 15 samples.

Results

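Fatty acid oxidation is the pathway by which mitochondria, and for some chains peroxisomes, cut fatty acids into acetyl-CoA. The 30 genes described here are a list of its enzymes and receptors, named by their known roles with earlier results of these data in view, and all 30 were found among the 46136 genes of the deposited tables. They comprise 4 acyl-CoA synthetases, 1 thioesterase, 4 carnitine acyltransferases, 7 acyl-CoA dehydrogenases, 3 genes of the electron transfer flavoprotein system, 6 genes of the later steps of the spiral, 3 genes that handle double bonds and 2 nuclear receptors.

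RNA was sequenced from hematopoietic stem cells (HSCs) sorted from the bone marrow of wild type C57BL/6 mice aged 8 to 10 weeks, at 100 cells per library. Untreated (n = 4) and 5-FU day4 (n = 4) are freshly sorted HSCs of mice without treatment and of mice 4 days after 5-fluorouracil (5-FU), a drug that destroys cycling marrow cells, after which surviving HSCs enter the cell cycle. Control (n = 3) and Nifedipine (n = 4) are HSCs cultured without and with nifedipine, a blocker of L-type calcium channels, and then sorted within 3 divisions. Doses, culture time and any pooling of animals are not stated in the labels. The labels do not tie replicates to separate mice or cultures, and each p-value therefore reflects library-to-library spread alone, which may be technical.

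As background, a fatty acid is first joined to coenzyme A by an acyl-CoA synthetase, and long chains then enter the mitochondrion as carnitine esters, with CPT1 at the outer and CPT2 at the inner membrane. Each turn of the spiral consists of a dehydrogenation, a hydration, another dehydrogenation and a thiolysis, and the electrons of the first step pass through the electron transfer flavoprotein (ETF) to the respiratory chain. In HSCs, fatty acid oxidation downstream of the receptor PPAR-delta is known for its part in keeping stem cells from differentiating at division.

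Exon reads per library ranged from 6171730 to 26673045, and between 14207 and 15846 genes had at least 1 read. The labelled cell type was checked against 12 HSC markers, none of which was at 0. Their summed level was 5219 to 5630 CPM (exon read counts scaled to a common library size, with TMM factors) in Untreated, 3640 to 3933 in 5-FU day4, 1586 to 1651 in Control and 2475 to 2745 in Nifedipine. Stromal and adipocyte markers (9 genes) summed to 219, 1880, 18.7 and 357 CPM in Untreated 1 to 4 and to 21.0, 26.4, 26.8 and 495 CPM in 5-FU day4 1 to 4, against at most 33.9 CPM in any cultured library. Endothelial markers (8 genes) summed to 351 to 915 CPM in Untreated and 283 to 335 CPM in 5-FU day4. Erythroid markers (9 genes) summed to 72.0 to 2132 CPM in Untreated and 255 to 340 CPM in 5-FU day4. Mitosis genes (16) summed to 405, 203, 889 and 195 CPM in Untreated 1 to 4, 3263 to 3879 CPM in 5-FU day4, 3553 to 3700 CPM in Control and 2326 to 2683 CPM in Nifedipine. In these bulk libraries, fewer cells of a type and less RNA per cell cannot be told apart.

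Of the 30 genes, 26 had a promoter window in the RefSeq table of GRCm38.p6. The windows of Hadha and Hadhb, which encode the alpha and beta subunits of the mitochondrial trifunctional protein, share 228 bases, since the genes lie head to head on chromosome 5 with 272 bases between them in the deposited mm10 coordinates. The 250 bases before the annotated start are printed for Cpt1a and Cpt1c, the carnitine palmitoyltransferase genes that were called higher both after 5-FU and with nifedipine, and for Hadhb, whose window is shared with Hadha. They stand at chr19:3323051-3323300 (plus strand), chr7:44974852-44975101 (minus strand) and chr5:30155003-30155252 (plus strand), and these genes were chosen with their values known. The 5-FU call of Cpt1c was lost in 10 of 17 alternative ways of processing or leaving out libraries. The RefSeq start of Cpt1a lies inside the gene as the deposited table places it, downstream of the start given there, so its window is not the sequence before the deposited start. Capitals mark matches, on either strand, to AGGTCA (nuclear receptor half-site), GGGCGG (GC box) and CCAAT.
Cpt1a: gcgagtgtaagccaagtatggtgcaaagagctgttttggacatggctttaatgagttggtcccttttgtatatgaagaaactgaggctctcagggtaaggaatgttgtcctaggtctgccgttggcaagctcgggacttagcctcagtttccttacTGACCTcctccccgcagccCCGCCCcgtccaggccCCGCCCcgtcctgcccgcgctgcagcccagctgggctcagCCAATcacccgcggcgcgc
Cpt1c: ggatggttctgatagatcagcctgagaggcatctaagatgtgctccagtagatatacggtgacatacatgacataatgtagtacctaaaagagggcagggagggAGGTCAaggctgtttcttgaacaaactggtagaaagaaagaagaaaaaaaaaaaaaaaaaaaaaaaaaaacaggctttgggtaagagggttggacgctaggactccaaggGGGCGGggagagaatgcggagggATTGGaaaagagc
Hadhb: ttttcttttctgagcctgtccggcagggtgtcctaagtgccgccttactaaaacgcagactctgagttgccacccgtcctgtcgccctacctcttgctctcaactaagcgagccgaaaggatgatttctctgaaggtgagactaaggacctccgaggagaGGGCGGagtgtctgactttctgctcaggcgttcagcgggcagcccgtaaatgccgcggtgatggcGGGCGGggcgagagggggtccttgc
The other motifs searched on both strands were the PPAR element (the half-site AGGTCA and its repeat after 1 base), TCAAGGTCA (the estrogen-related receptor element, which also holds it), TGACGTCA (cAMP response element), CACGTG (E-box) and the NRF1 element. Within these 250 bases the half-site was present in 5 of 26 members (19.2%; Cpt1a, Cpt1c, Acadvl, Acadm and Echs1), against 11.2% of 13022 windows of genes tested after 5-FU and 14% of all 32851 windows. The GC box was present in 18 of 26 (69.2%, against 55.7% and 32.7%), CCAAT in 14 of 26 (53.8%, against 35.3% and 33.8%) and the NRF1 motif in 2, Etfdh and Ppara (7.69%, against 1.58% and 0.782%). The PPAR element, present in 0.0307% of windows of tested genes, matched 0 members, and so did the estrogen-related receptor element, the cAMP response element and the E-box (0.269%, 2.51% and 7.99% of those windows). These are matches of letters in one window per start and not measured sites. Members were counted by gene, with 27 windows for 26 members, and the other shares by window. None of these differences in share was tested.

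Levels between genes were compared per kilobase of exon. In Untreated the highest was Acsl5, a long-chain acyl-CoA synthetase, at 37.7 ± 2.56 CPM per kb (mean ± SD, n = 4), followed by Cpt1a at 36.3 ± 2.29, Etfa at 33.3 ± 3.68, Acadm at 31.3 ± 1.57 and Etfb at 30.7 ± 1.76, and each of these neighbours differed by less than the larger of their SDs. The lowest were Ppara at 0.0619 ± 0.0626, Cpt1c at 1.68 ± 0.493, Crat at 4.30 ± 0.0851 and Ppard at 4.58 ± 0.795 CPM per kb. After 5-FU Cpt1a ranked first at 57.3 ± 4.51 CPM per kb and Etfa next at 56.9 ± 1.92. In Control, Acsl5 ranked first at 93.2 ± 6.68 and Cpt1a stood at rank 15 with 25.2 ± 0.677. With nifedipine Cpt1a stood at rank 7 with 38.4 ± 2.30 CPM per kb. Summed over all 30 members, the level per kilobase was 532 ± 13.8 in Untreated, 625 ± 19.6 in 5-FU day4, 827 ± 26.8 in Control and 737 ± 20.2 in Nifedipine. These sums were not corrected for differences between libraries that go with exon length and GC content.

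**Figure D1:**
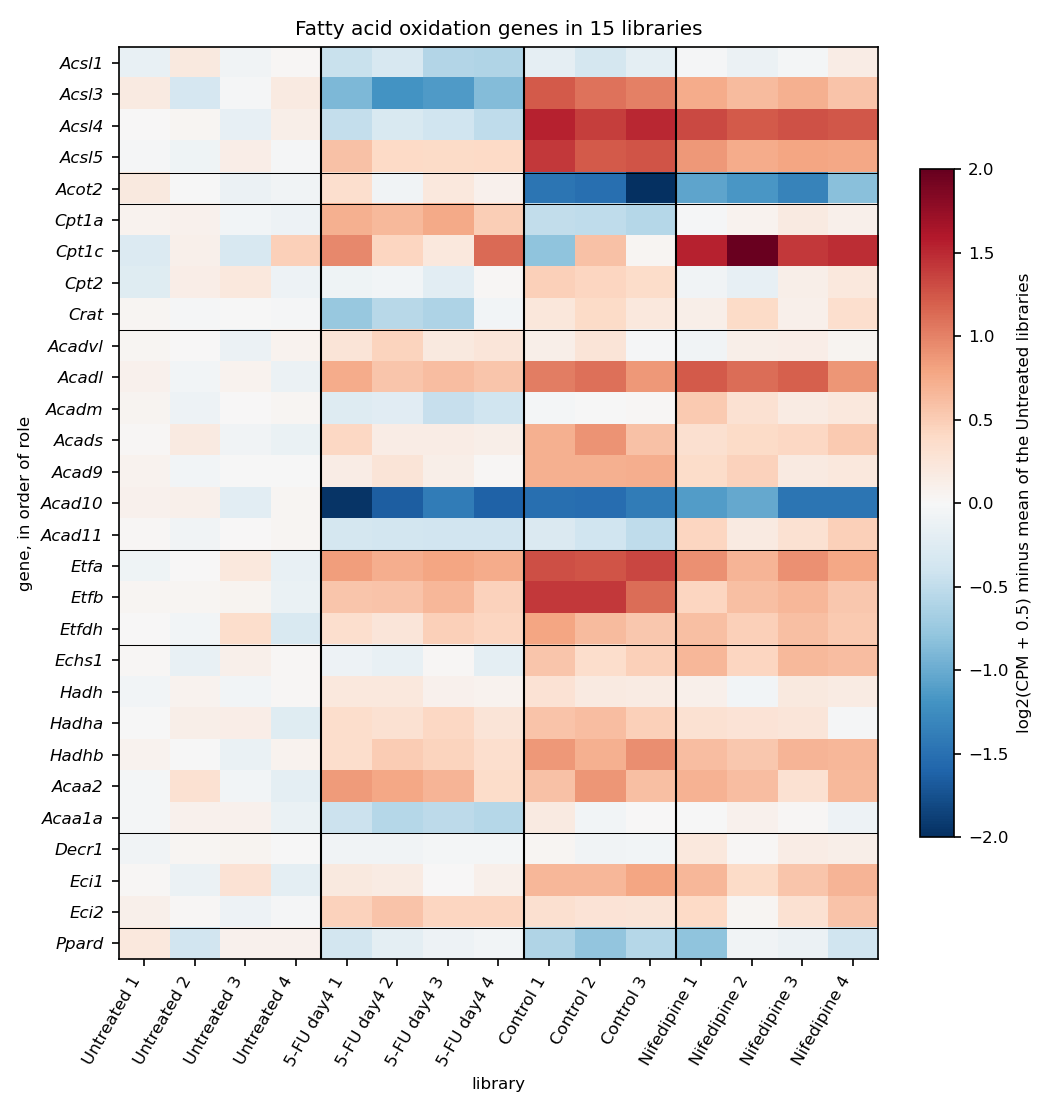
Heat map of 29 members (rows, in order of role; Ppara is left out for its low reads) in the 15 libraries (columns), coloured by log2(CPM + 0.5) minus the mean of the Untreated libraries. Acad10 is low in all 5-FU day4, Control and Nifedipine libraries, while Etfa is above the Untreated mean in each of them.

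The first comparison set HSCs 4 days after 5-FU against Untreated HSCs, to see how the pathway's genes stand when HSCs have been driven into division. Of 30 members tested, 12 were higher and 8 lower (edgeR quasi-likelihood test, Benjamini-Hochberg adjusted p of 0.05 or less over 13384 genes), that is 40.0% and 26.7%, while 26.7% and 23.8% of all genes tested were called higher and lower. Called in either direction were 20 members, against 50.5% of all genes, and the libraries of the groups did not overlap for 18 members, against 47.4% of all genes. The share called lower is near that of all genes. The median log2 fold change was 0.17, beside -0.02 over all genes. Without Untreated 3, the highest Untreated library in mitosis genes, and 5-FU day4 4, the highest 5-FU library in stromal markers, 11 were higher and 8 lower, and without Untreated 2, the highest in stromal markers, 10 and 7. Of 12 HSC markers 8 were called lower and 0 higher, of 8 endothelial markers 6 lower and 0 higher, and all 16 mitosis genes higher. Of 5 tested erythroid markers 1 was higher and 2 lower. Lower, with 0 higher, were 2 of 6 megakaryocyte, 2 of 9 stromal and adipocyte, 2 of 3 tested granulocyte and monocyte and 1 of 3 tested T and NK cell markers. The part of all these markers in the results was not tested. Exon reads made up at most 26.3% of the read total behind the deposited RPKM values in Untreated and up to 31.9% in 5-FU day4. With that total as library size the median of all genes moved to 0.17, that of the members to 0.37, and 16 members were higher and 4 lower. Corrected for exon length and GC content, 9 were higher and 9 lower, so as many members were called in each direction. The median was then 0.04 beside -0.06 over all genes. The share of all genes called under that correction is not given here.

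Cpt1a, the liver-type CPT1 that admits long chains to mitochondria (mm10 chromosome 19, 3322325 to 3385735), read 189, 189, 172 and 168 CPM in Untreated and 295, 282, 304 and 253 CPM in 5-FU day4. Every library after 5-FU was above every Untreated library, and the gene rose by 0.69 ± 0.07 SE on the log2 scale (adjusted p = 2.28e-05). Cpt1c, a CPT1 isoform best known from brain (chromosome 7, 44958483 to 44974851), read 3.90, 5.22, 3.78 and 6.89 against 9.84, 6.62, 5.62 and 11.2 CPM. These groups overlapped. It was called higher at 0.78 ± 0.29 (adjusted p = 0.0419), and the call was lost without Untreated 1 (0.105), Untreated 2 (0.0635), Untreated 3 (0.0990), 5-FU day4 1 (0.120), 5-FU day4 2 (0.0503) or 5-FU day4 4 (0.119), and without Untreated 3 and 5-FU day4 4 together the value was 0.50 (adjusted p = 0.216). Cpt2, the inner membrane enzyme, was at 25.9 ± 3.75 and 24.3 ± 1.65 CPM (n = 4 each; log2 difference -0.06, adjusted p = 0.694). Crat, which moves short acyl groups to and from carnitine, was lower at 14.5 ± 3.42 CPM against 20.4 ± 0.403 (log2 fold change -0.46 ± 0.16, adjusted p = 0.0314), and 5-FU day4 4 was at 19.5 CPM while the other 5-FU libraries were at 11.8 to 13.7. The adjusted p of Crat was 0.0529 to 0.0741 when any of Untreated 1, Untreated 2, Untreated 4, 5-FU day4 1, 5-FU day4 2 or 5-FU day4 3 was left out, 0.176 with the RPKM read total and 0.0557 with the length and GC correction. Cpt1b, the muscle-type gene that is not a member, was at 2.00 ± 0.156 and 1.55 ± 0.482 CPM.

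The synthetases that activate long-chain fatty acids split. Acsl5 (chromosome 19, 55251884 to 55296628) rose from 123, 119, 138 and 124 CPM to 189, 165, 164 and 165 CPM (log2 fold change 0.47 ± 0.07, adjusted p = 0.000274). Acsl3 (chromosome 1, 78657825 to 78707743), a synthetase of lipid droplets and endoplasmic reticulum, fell from 88.0, 61.8, 76.5 and 87.8 CPM to 41.4, 33.8, 35.2 and 42.4 CPM (-1.01 ± 0.12, adjusted p = 8.11e-05). Acsl4, which prefers arachidonic acid, fell by 0.40 and Acsl1 by 0.47 (adjusted p = 0.00104 and 0.00278). The libraries of the groups did not overlap for any of the 4. With the RPKM read total the call of Acsl1 was lost (-0.27, adjusted p = 0.0553) and Acsl4 was at -0.20 (adjusted p = 0.0377). As a share of the 4 genes per kilobase, Acsl5 made up 44.4% ± 2.83 in Untreated and 63.2% ± 1.47 in 5-FU day4, and Acsl3 23.3% ± 2.92 and 11.9% ± 1.23. Utp14b begins at the same place as Acsl3 in the deposited table. How reads of the pair were assigned is not known, so they may be mixed. Utp14b was also lower, with a value of -1.35 (adjusted p = 2.25e-05). Acot2, a mitochondrial thioesterase that releases fatty acids from CoA, was at 26.8 ± 2.70 and 29.6 ± 3.72 CPM (adjusted p = 0.226, and 0.0219 with the RPKM read total at a log2 fold change of 0.38), while Acot1, a close relative next to it to which reads could be assigned instead, was higher by 0.95 (adjusted p = 0.00143).

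Among the 7 acyl-CoA dehydrogenases, which make the first double bond, 2 were higher, 3 lower and 2 not called. Acad10 (chromosome 5, 121621026 to 121660510), a less studied member of the family, had the largest change of all 30 genes. It fell from 29.7, 29.99, 24.1 and 28.7 CPM to 6.80, 8.60, 10.3 and 8.81 CPM (-1.67 ± 0.15, adjusted p = 1.1e-05), with no library of one group near the other. Untreated 3 had the lowest Acad10 of the Untreated libraries, at 24.1 CPM. Its stromal markers summed to 18.7 CPM, below every 5-FU library, and its endothelial markers to 378 CPM, above every 5-FU library. The part of other cells in the Acad10 values was not tested. Acadl, the long-chain dehydrogenase (chromosome 1, 66830839 to 66863309), rose from 49.1, 44.5, 48.6 and 42.3 CPM to 77.6, 67.9, 71.0 and 67.8 CPM (0.65 ± 0.08, adjusted p = 7.54e-05; 0.41 with the length and GC correction). Acadvl, for very long chains, rose by 0.32 (adjusted p = 0.00841). Its reads were divided almost evenly between the main chromosome and a scaffold copy, and the call was lost when only the main copy was counted (adjusted p = 0.0706) or exon length and GC content were corrected for (0.0640), while the value was 0.52 with the RPKM read total. The medium-chain gene Acadm fell by 0.31 (adjusted p = 0.00687) from 64.5 ± 3.24 to 51.1 ± 3.93 CPM, and Acad11 by 0.35 (adjusted p = 0.00400) from 30.7 ± 0.929 to 23.6 ± 0.238 CPM. With the RPKM read total neither Acadm (-0.11, adjusted p = 0.315) nor Acad11 (-0.15, adjusted p = 0.161) passed, and with the length and GC correction Acadm was at -0.51. The short-chain gene Acads and Acad9, which also helps to assemble respiratory complex I, were at 14.4 ± 1.39 and 16.7 ± 1.68 CPM and at 42.2 ± 1.52 and 46.5 ± 3.19 CPM (adjusted p = 0.124 and 0.0960), and both were called higher with the RPKM read total (0.45 and 0.36, adjusted p = 0.0162 and 0.00433). Per kilobase, Acadm was the largest of the 7 in Untreated with 28.9% ± 1.07 of their sum and Acadl was next with 21.9% ± 1.34. After 5-FU the order was reversed, with Acadl at 32.1% ± 1.67 and Acadm at 21.8% ± 0.835, and the shares of each gene did not overlap between the groups.

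All 3 genes that carry electrons from these dehydrogenases were called higher. Etfa, the ETF alpha subunit (chromosome 9, 55454436 to 55512243), rose from 45.9, 48.8, 56.2 and 43.9 CPM to 86.6, 80.8, 84.6 and 81.1 CPM (0.80 ± 0.08, adjusted p = 3.15e-05). Etfb, the beta subunit (chromosome 7, 43444072 to 43457800), rose from 28.3, 28.5, 28.7 and 25.3 CPM to 41.1, 41.3, 44.3 and 38.4 CPM (0.60 ± 0.08, adjusted p = 0.000186). With the length and GC correction Etfa was at 0.49 and Etfb at 0.31 (adjusted p = 0.000338 and 0.0133). Etfdh, the membrane enzyme that hands the electrons to ubiquinone, was at 43.4 ± 8.50 and 55.8 ± 4.00 CPM (0.39 ± 0.13, adjusted p = 0.0275). Untreated 3, at 54.9 CPM, lay among the 5-FU libraries for Etfdh, and the call was lost without Untreated 1 (0.0599), Untreated 2 (0.0579), Untreated 4 (0.0613), 5-FU day4 3 (0.0623) or 5-FU day4 4 (0.0596), and with correction for exon length and GC content (log2 fold change 0.18, adjusted p = 0.238). Per kilobase, Etfdh stood at 0.568 ± 0.0562 of Etfa in Untreated and 0.430 ± 0.0309 after 5-FU.

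In the later steps, Hadha and Hadhb, whose products together carry out the last 3 reactions on long chains, rose side by side. Hadha (chromosome 5, 30118304 to 30154980) went from 71.0, 77.3, 78.6 and 60.6 CPM to 91.5, 88.3, 95.9 and 85.3 CPM (0.36 ± 0.09, adjusted p = 0.00522; 0.56 with the RPKM read total). Hadhb (chromosome 5, 30155253 to 30184593) went from 103, 97.3, 89.6 and 103 CPM to 125, 141, 134 and 124 CPM (0.44 ± 0.06, adjusted p = 0.000265). The ratio of Hadha to Hadhb per kilobase was 1.03 ± 0.178 in Untreated and 0.969 ± 0.0635 in 5-FU day4, a difference below the spread of the Untreated libraries. The mitochondrial thiolase gene Acaa2 rose by 0.72 (22.9 ± 3.66 to 36.8 ± 5.11 CPM, adjusted p = 0.00149). Its peroxisomal counterpart Acaa1a fell by 0.50 (37.6 ± 2.85 to 26.0 ± 1.14 CPM, adjusted p = 0.000861), and the near copy Acaa1b was at 0.282 CPM or less in every group mean. With the RPKM read total Acaa1a was at -0.30 (adjusted p = 0.0245). Eci2, an enoyl-CoA isomerase of peroxisomes and mitochondria, rose by 0.50 (adjusted p = 0.000166; 0.27 with the length and GC correction). Echs1, Hadh, Decr1 and Eci1, which encode the short-chain hydratase, the short-chain hydroxyacyl-CoA dehydrogenase, the dienoyl-CoA reductase and the mitochondrial isomerase, were not called, with log2 differences of -0.08, 0.17, -0.02 and 0.14. With the length and GC correction Echs1 (-0.35, adjusted p = 0.00614) and Decr1 (-0.17, adjusted p = 0.0485) were called lower, and with the RPKM read total Hadh was called higher (0.37, adjusted p = 0.00266). The receptors were not called. Ppard was at 14.7 ± 2.56 and 12.8 ± 1.28 CPM (adjusted p = 0.360), and Ppara had 46 reads over 4 Untreated and 35 over 4 5-FU day4 libraries.

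**Figure D2:**
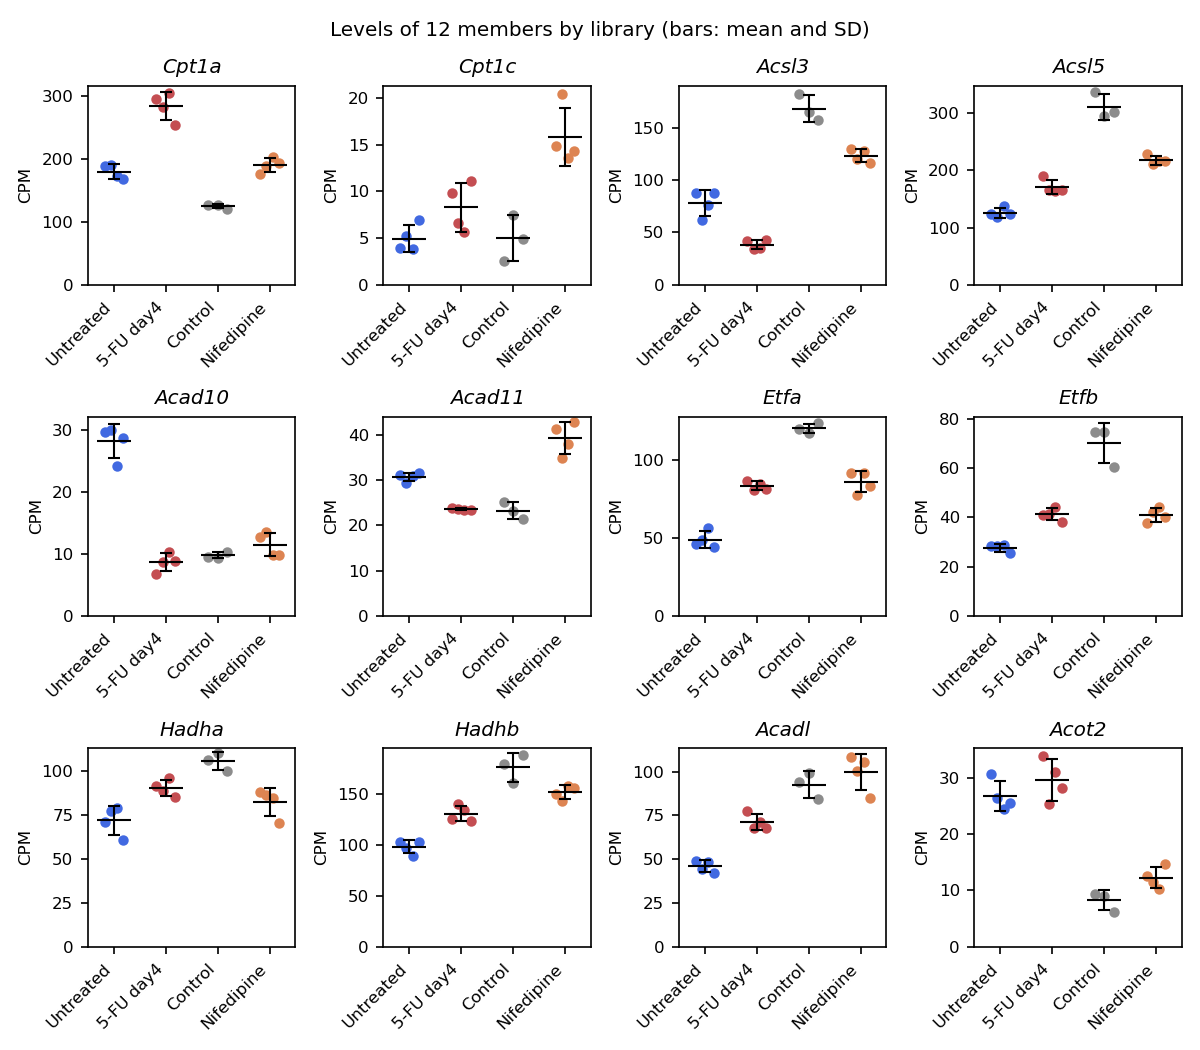
CPM of 12 members by library in the 4 groups (points, 1 per library; bars, mean and SD; the axis of each panel starts at 0). Acad10 falls from 28.1 ± 2.74 in Untreated to 8.63 ± 1.43 CPM in 5-FU day4, and Cpt1c stands at 15.8 ± 3.11 CPM in Nifedipine against 4.98 ± 2.46 in Control.

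The second comparison asked how blocking L-type calcium channels in culture bears on the same genes. Of 29 members tested, 6 were higher and 10 lower with nifedipine (20.7% and 34.5%), against 25.8% and 24.2% of all 12807 genes tested, and the median was -0.06 beside 0.02 over all genes. With the length and GC correction both medians were -0.03, and 5 were higher and 9 lower. Called in either direction were 16 members, against 49.9% of all genes, and libraries did not overlap for 16, against 51.2%. The share called higher was below that of all genes and the share called lower above it, and neither difference was tested. Ppara was not tested, with 14 reads over 3 Control and 15 over 4 Nifedipine libraries. Markers also differed, with 9 of 12 HSC markers called higher and 2 lower and 1 of 16 mitosis genes higher and 9 lower. Of other cell types, 4 of 6 megakaryocyte, 3 of 4 tested erythroid, 1 of 4 tested stromal and adipocyte and 1 of 2 tested T and NK cell markers were lower. Higher were 2 of 3 tested granulocyte and monocyte markers, 2 of 7 tested endothelial markers and 1 of 1 tested macrophage marker. The granulocyte and monocyte list summed to 62.1 to 80.5 CPM in Control and 210 to 233 CPM in Nifedipine, the megakaryocyte list to 276 to 446 and 132 to 268 CPM, and the erythroid list to 207 to 260 and 106 to 165 CPM. Their part in the results was not tested.

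The genes higher with nifedipine were the CPT1 genes, Acad11, Acadm, Acot2 and Acsl1. Cpt1c read 2.54, 7.46 and 4.94 CPM in Control and 14.9, 20.4, 13.6 and 14.3 CPM in Nifedipine, groups that did not overlap, and rose by 1.68 ± 0.27 (adjusted p = 5.25e-05), the largest change of any member in this comparison. Cpt1c made up 6.01% ± 2.84 of the 3 Cpt1 genes per kilobase in Control and 12.1% ± 2.24 with nifedipine, so Cpt1a remained the main CPT1 transcript. Cpt1a itself rose from 127, 126 and 121 CPM to 175, 188, 203 and 193 CPM (0.61 ± 0.07, adjusted p = 8.39e-07). Acad11 (chromosome 9, 104063703 to 104127646), a dehydrogenase of very long and long chains, rose from 25.1, 23.3 and 21.5 CPM to 41.4, 35.0, 38.0 and 43.0 CPM (0.76 ± 0.11, adjusted p = 2.06e-05). Acadm rose by 0.32, from 64.0 ± 1.47 (n = 3) to 79.9 ± 9.19 CPM (n = 4; adjusted p = 0.00643). Acot2 rose by 0.58 (8.25 ± 1.75 to 12.3 ± 1.88 CPM, adjusted p = 0.0200), with an adjusted p of 0.109 without Control 3 and 0.0698 without Nifedipine 4. Acsl1 was at 46.8 ± 2.99 and 55.0 ± 4.49 CPM (0.23, adjusted p = 0.0450), a call lost in 13 of 15 alternatives, among them leaving out Control 1 (0.0623), Control 2 (0.169), Control 3 (0.0701), Nifedipine 1 (0.0627), Nifedipine 3 (0.0596) or Nifedipine 4 (0.145), with an adjusted p of 0.0556 in DESeq2 and a value of 0.10 (0.414) with the length and GC correction.

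The genes lower with nifedipine were 3 synthetases, both ETF subunits, both trifunctional protein subunits, Cpt2, Acad9 and Acads. Etfb fell most, from 74.7, 74.9 and 60.7 CPM to 37.6, 42.4, 44.3 and 40.3 CPM (-0.77 ± 0.10, adjusted p = 3.41e-06). Etfa fell from 119, 117 and 123 CPM to 91.5, 77.6, 91.3 and 83.3 CPM (-0.48 ± 0.08, adjusted p = 4.11e-05). Etfdh was not called, at 67.7 ± 6.05 and 63.1 ± 2.91 CPM (-0.10, adjusted p = 0.347). Acsl5 fell from 337, 295 and 302 CPM to 229, 211, 217 and 216 CPM (-0.51 ± 0.06, adjusted p = 2.5e-06), Acsl3 by 0.45 (adjusted p = 4.53e-05) and Acsl4 by 0.21 (adjusted p = 0.00660). Hadha fell by 0.36 (105 ± 5.07 to 82.3 ± 8.12 CPM, adjusted p = 0.00173) and Hadhb by 0.21 (176 ± 14.1 to 152 ± 6.55 CPM, adjusted p = 0.0166). The Hadhb call was lost without Control 1 (0.0577) or Control 3 (0.106). With the RPKM read total, Hadhb (-0.17, adjusted p = 0.230) and Acsl4 (-0.17, adjusted p = 0.208) did not pass, while with the length and GC correction both were at -0.36. Cpt2 fell by 0.40, Acad9 by 0.41 and Acads by 0.34 (adjusted p = 0.00691, 0.000719 and 0.0325). Acads lost its call without Control 1 (0.0667), Control 2 (0.160), Nifedipine 1 (0.0767), Nifedipine 2 (0.0524) or Nifedipine 3 (0.0599), with the RPKM read total (0.106) and with the length and GC correction (0.0882). The 13 members not called were Crat, Acadvl, Acadl, Acad10, Etfdh, Echs1, Hadh, Acaa2, Acaa1a, Decr1, Eci1, Eci2 and Ppard, with log2 differences from -0.13 to 0.34. Ppard, at 0.34, passed without Nifedipine 1 (0.0441).

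**Figure D3:**
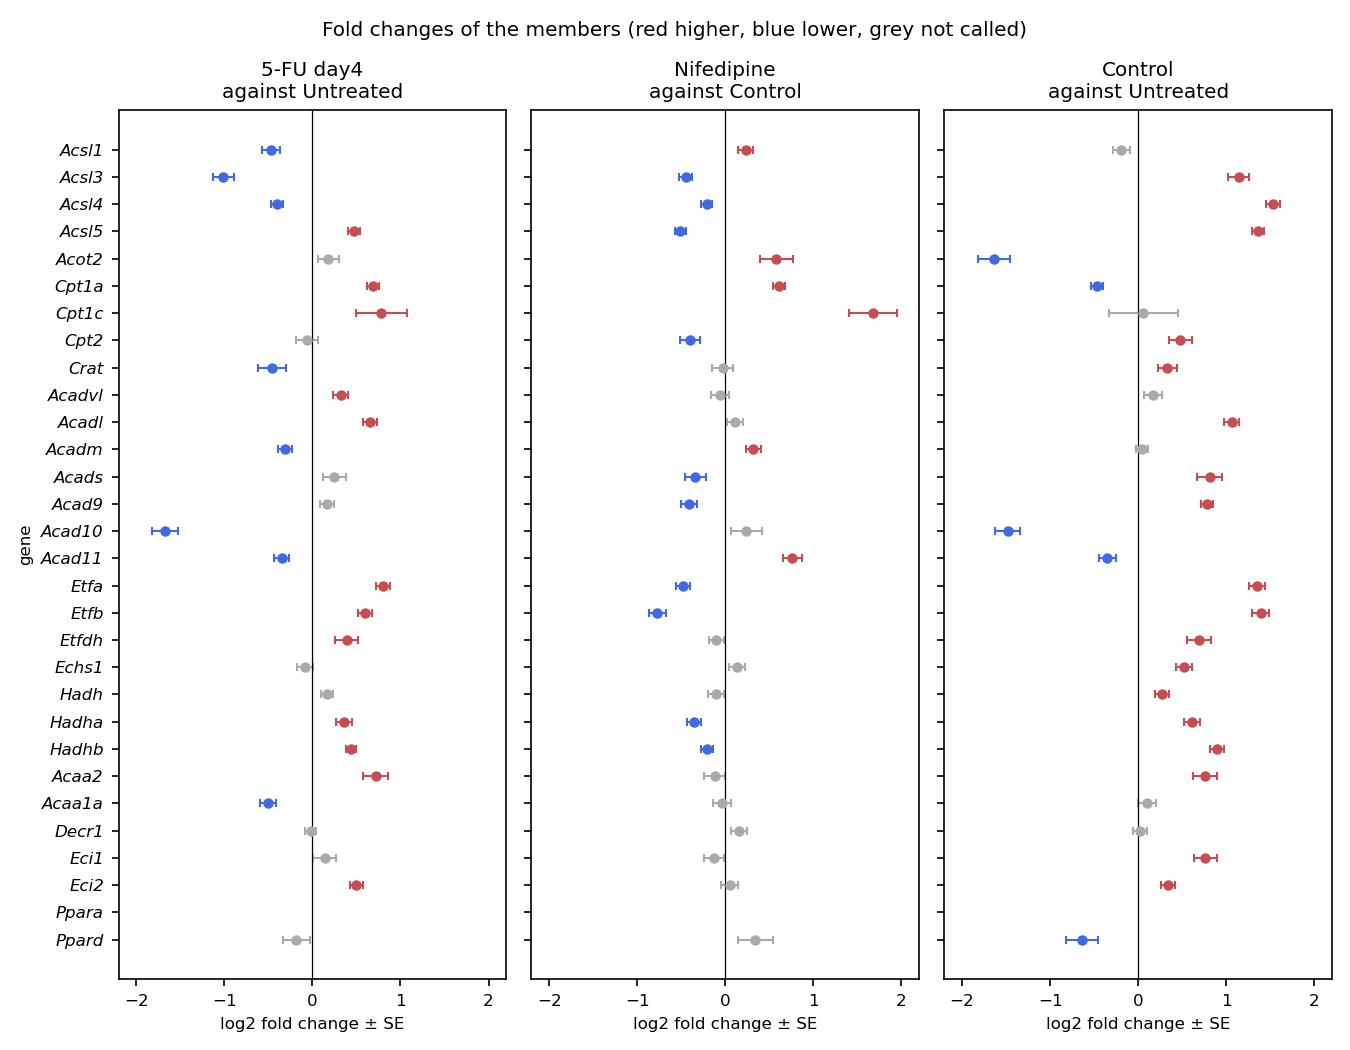
Log2 fold changes (points) with SE (bars) of the members in the 3 comparisons, on 1 scale; red points were called higher, blue lower and grey not called, and Ppara is left out. Etfa and Etfb are to the right of 0 after 5-FU and in Control against Untreated and to the left of 0 with nifedipine.

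The 5-FU and nifedipine comparisons share no library. Of the 29 members tested in both, Cpt1a and Cpt1c were called higher in both, and Acsl3 and Acsl4 lower in both. The 5 genes Acsl5, Etfa, Etfb, Hadha and Hadhb were higher after 5-FU and lower with nifedipine, while Acsl1, Acadm and Acad11 were lower after 5-FU and higher with nifedipine. Another 5 (Acadvl, Acadl, Etfdh, Acaa2 and Eci2) were higher after 5-FU alone, 3 (Crat, Acad10 and Acaa1a) lower after 5-FU alone, and Acot2, Cpt2, Acads and Acad9 were called with nifedipine alone, which does not show that the responses of those genes differ. Echs1, Hadh, Decr1, Eci1 and Ppard were called in neither. Of the genes called in both, Cpt1c lost its 5-FU call in 10 of 17 alternatives and Acsl1 its nifedipine call in 13 of 15. Across the 29 genes, which are not independent replicates, Pearson's r between the log2 fold changes was -0.01 and Spearman's rho -0.18. The difference between the responses was not tested for any gene. How many of all genes fall in these joint classes was not counted, while 50.5% of all genes tested were called after 5-FU and 49.9% with nifedipine. The joint calls are therefore not read as a trait of these genes.

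**Figure D4:**
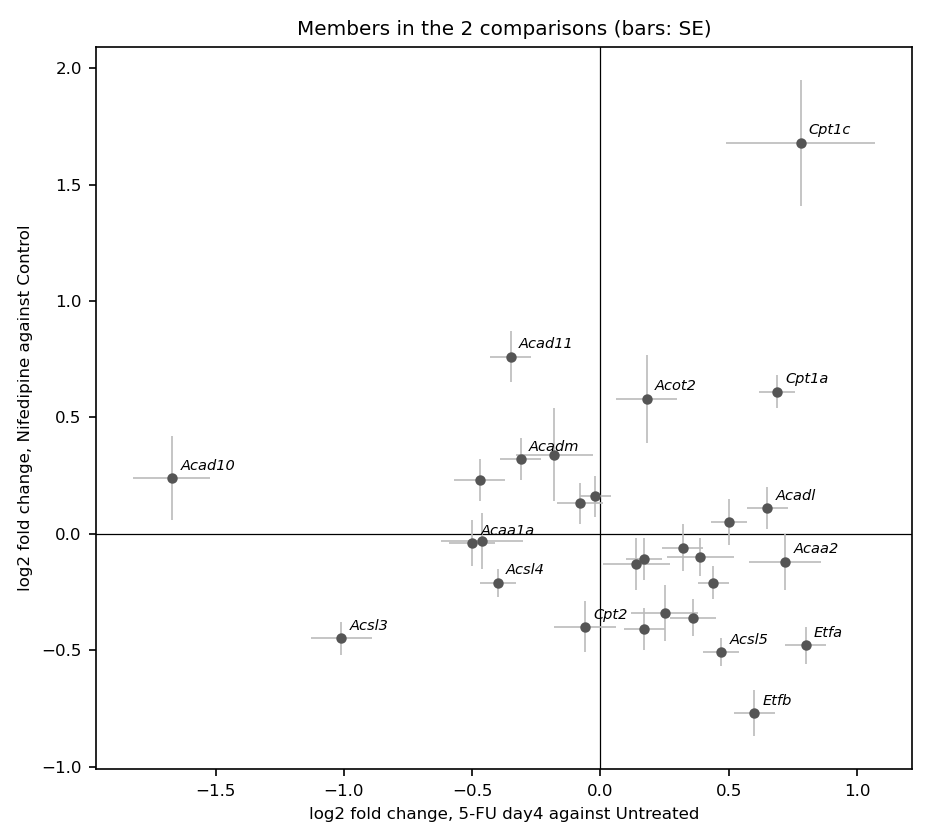
Log2 fold change after 5-FU (x axis) and with nifedipine (y axis) for 29 members, with SE as bars. Cpt1a and Cpt1c lie in the upper right, Acsl3 and Acsl4 in the lower left, and Etfa, Etfb and Acsl5 in the lower right.

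The levels of cultured Control HSCs were also set beside those of fresh Untreated HSCs. Culture, the sort by divisions and any difference of experiment or sequencing run move together here and cannot be told apart. This comparison shares the Untreated libraries with the first comparison and the Control libraries with the second. Of 29 members tested, 18 were higher and 5 lower (62.1% and 17.2%), against 35.8% and 36.1% of all 13520 genes, with a median of 0.48 beside -0.05. Called in either direction were 23, against 72.0% of all genes, and libraries did not overlap for 24, against 72.0%. Of 12 HSC markers 10 were lower and 1 higher and all 16 mitosis genes were higher. Of other cell types, 7 of 8 endothelial and 5 of 7 tested erythroid markers were lower and 1 of each higher. Of 6 megakaryocyte markers 2 were higher and 2 lower. Lower, with 0 higher, were 7 of 9 stromal and adipocyte, 6 of 6 macrophage and 4 of 4 tested granulocyte and monocyte markers. The same held for 2 of 2 tested B cell and 2 of 3 tested T and NK cell markers. The part of these markers in the results was not tested. Corrected for exon length and GC content, 11 were higher and 7 lower and the median was 0.26, beside -0.06 over all genes. The median exon length of the members was 2647 bases, against 3497 over the genes tested in the 5-FU comparison. Without Untreated 3, 18 were higher and 5 lower.

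The largest rises in culture were in Acsl4, from 109 ± 8.57 (n = 4) to 303 ± 16.1 CPM (n = 3; log2 fold change 1.53 ± 0.08, adjusted p = 1.66e-07), Etfb (1.39), Acsl5 (1.36), Etfa (1.35), Acsl3 (1.14) and Acadl (1.06). For each of these 6 genes every Control library was above every Untreated library. With the length and GC correction Etfa was at 0.74, Etfb at 0.93 and Acadl at 0.57. Hadhb, Acads, Acad9, Eci1, Acaa2, Etfdh, Hadha, Echs1, Cpt2, Eci2, Crat and Hadh rose by 0.27 to 0.89. Correction for length and GC content ended the calls of Cpt2, Etfdh, Acaa2, Eci1, Echs1, Hadh and Eci2, and the values of the last 3 turned to -0.02, -0.12 and -0.11. Hadh also lost its call without Control 1 (0.0546), and Crat without Untreated 4 (0.0641) or Control 2 (0.0702). Acsl1, Cpt1c, Acadvl, Acadm, Acaa1a and Decr1 were not called, with log2 differences from -0.19 to 0.17, and Ppara was not tested. With the length and GC correction Acadm (-0.34, adjusted p = 0.00222) and Decr1 (-0.25, adjusted p = 0.0132) were called lower. With the RPKM read total Acadvl (0.41), Acadm (0.28), Acaa1a (0.33) and Decr1 (0.26) were called higher.

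The 5 genes that were lower in culture were Acot2, Acad10, Ppard, Cpt1a and Acad11. Acot2 fell from 30.7, 26.4, 24.6 and 25.5 CPM to 9.43, 9.10 and 6.24 CPM (-1.64 ± 0.18, adjusted p = 2.33e-05), and Acot1 beside it had a value of -3.94 (adjusted p = 5.15e-05). Acad10 fell to 9.55, 9.37 and 10.3 CPM (-1.48 ± 0.14, adjusted p = 7.81e-06), beside 6.80 to 10.3 CPM in the 5-FU day4 libraries. Ppard, the receptor PPAR-delta (chromosome 17, 28232754 to 28301469), read 16.9, 11.04, 15.4 and 15.5 CPM in Untreated and 9.47, 8.22 and 9.67 CPM in Control (-0.64 ± 0.18, adjusted p = 0.0101), and the call was lost with the RPKM read total (adjusted p = 0.0832). Of its 3126 reads in all libraries, 1574 were on a scaffold copy. Cpt1a fell by 0.47 (adjusted p = 0.000133; -0.23 with the RPKM read total and -0.29 with the length and GC correction), and its Nifedipine libraries, at 175 to 203 CPM, were in and just above the range of the Untreated ones, at 168 to 189 CPM. Acad11 fell by 0.35 (adjusted p = 0.0121), with an adjusted p of 0.0555 without Control 3 and, with the RPKM read total, 0.389 (-0.11).

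Set side by side, 10 genes were higher in Control than in Untreated and lower with nifedipine than in Control (Acsl3, Acsl4, Acsl5, Cpt2, Acads, Acad9, Etfa, Etfb, Hadha and Hadhb). Acot2, Cpt1a and Acad11 were lower in Control and higher with nifedipine. Both comparisons hold the Control libraries, on opposite sides, so these counts are not independent and opposite calls are favoured for any gene. Such opposite calls were not counted over all genes. Of all genes tested, 72.0% were called in Control against Untreated and 49.9% with nifedipine. In culture Acsl5 made up 47.3% ± 0.455 of the 4 synthetases per kilobase in Control and 43.1% ± 0.303 in Nifedipine, and Acsl4 27.7% ± 0.965 and 31.1% ± 0.132. Acadl was the largest dehydrogenase in both, at 34.2% ± 1.21 and 34.7% ± 2.31.

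**Figure D5:**
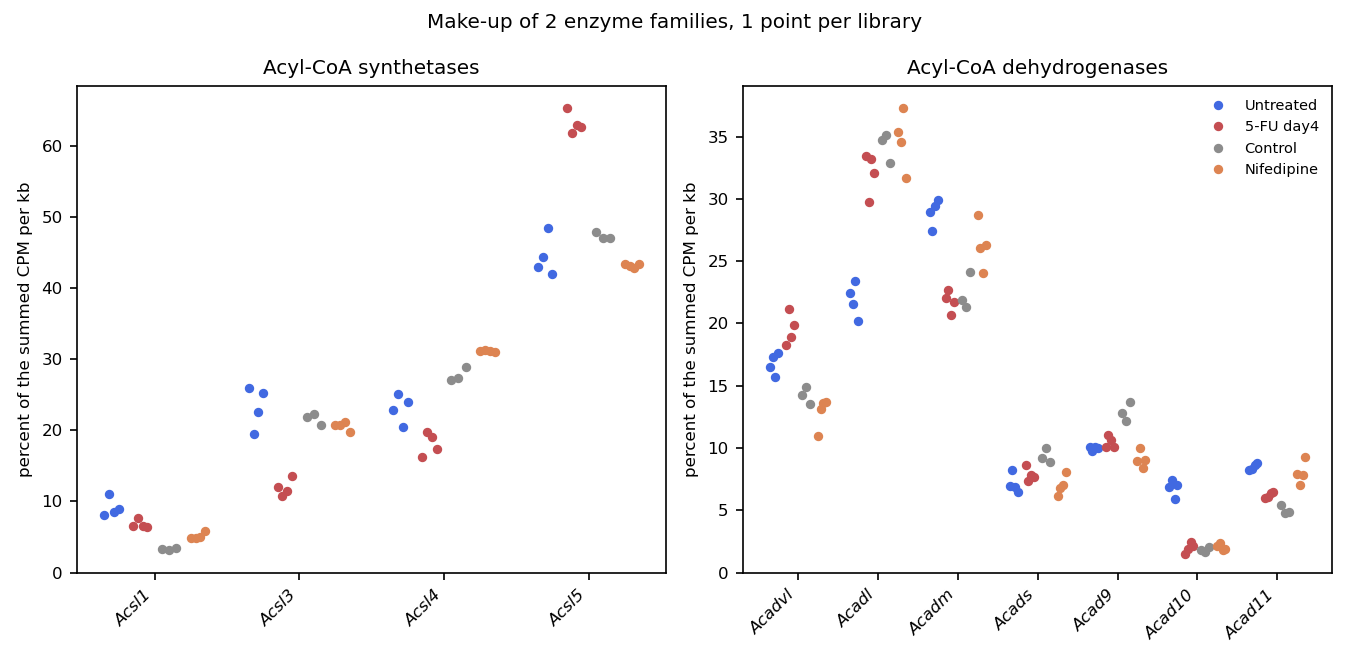
Share of each gene in the summed CPM per kb of its family, 1 point per library, for the 4 acyl-CoA synthetases (left) and the 7 acyl-CoA dehydrogenases (right). Acsl5 lies between 61.8% and 65.3% after 5-FU and between 41.9% and 48.4% in Untreated, and Acadm exceeds Acadl in Untreated only.

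The wider network around the pathway was described from 10 lists with 175 genes. Most lists have few tested genes, so each count is to be read beside the share of all genes called in the same comparison. After 5-FU, 26 of 141 tested genes were higher and 45 lower (18.4% and 31.9%, against 26.7% and 23.8% of all genes tested). Branched and short chain acyl-CoA oxidation had 1 higher and 9 lower of 18 (Acat1 0.74, Ivd, the isovaleryl-CoA dehydrogenase, -0.92), and peroxisomal oxidation 2 higher and 7 lower of 19 (Hsd17b4 0.39, Acox3 -0.64). Among regulators 6 were higher and 11 lower of 27, led by the coactivator Pprc1 at 0.83 and the phosphatidate phosphatase Lpin1 at -1.11. Uptake and activation had 2 and 5 of 13 (the acyl-CoA binding protein Dbi 0.86, Slc27a6 -0.68) and the carnitine list 2 and 3 of 8 (Aldh9a1 0.47, Crot -0.41). Fatty acid synthesis had 7 and 3 of 21 (the elongase Elovl5 0.54, the desaturase Scd2 -1.10), lipolysis and lipid droplets 1 and 4 of 10 (Mgll 1.06, Lipe -0.73) and thioesterases 1 and 1 of 7 (Acot1 0.95, Acot11 -0.17). PPAR target and ketone body genes had 2 and 1 of 8 (Angptl4 1.32, Vnn1 -1.61), and mitochondrial fatty acid synthesis 2 and 1 of 10 (the acyl carrier protein Ndufab1 0.79, Mecr -0.37).

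With nifedipine, 37 of 139 tested genes of these lists were higher and 28 lower (26.6% and 20.1%), near the 25.8% and 24.2% of all genes tested. Fatty acid synthesis had 4 higher and 12 lower of 23, with Scd1, the stearoyl-CoA desaturase, down from 832 to 426 ± 33.1 CPM (-0.97 ± 0.06, adjusted p = 1.03e-09) and Hacd2 up by 0.58. Peroxisomal oxidation had 7 higher and 1 lower of 18 (catalase, Cat, 0.93 and Hsd17b4 -0.41), and branched and short chain oxidation 6 and 0 of 18, led by Acadsb at 0.85. Regulators had 8 and 6 of 25, with Lpin1 at 1.38 and Pprc1 at -0.70, each opposite in sign to its value after 5-FU. Uptake and activation had 2 and 3 of 11, with the fatty acid transporter Slc27a1 up by 1.39 and the binding protein Fabp5 at -1.52. The carnitine list had 3 and 1 of 9 (Crot 0.56, Aldh9a1 -0.39), lipolysis and lipid droplets 3 and 0 of 10 (Plin3 0.68), and thioesterases 1 and 1 of 7 (Acot11 1.38, Acot7 -0.40). PPAR target and ketone body genes had 1 and 2 of 8 (Ucp2 0.53, Oxct1 -0.49) and mitochondrial fatty acid synthesis 2 and 2 of 10 (Hsd17b8 0.56, Ndufab1 -0.69).

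In Control against Untreated, 47 of 148 were higher and 56 lower (31.8% and 37.8%), near the 35.8% and 36.1% of all genes tested. Fatty acid synthesis had 16 higher and 1 lower of 23, with a median of 1.30, led by Scd2 at 2904 ± 130 against 508 CPM (2.57 ± 0.06, adjusted p = 9.71e-09), and Fads6 fell by 1.32. Regulators had 7 and 14 of 27, with Acaca, the acetyl-CoA carboxylase whose product malonyl-CoA inhibits CPT1, at 1.53 and the coactivator Ppargc1a at -3.60. Uptake and activation had 3 and 8 of 14 (Fabp5 3.29, Slc27a6 -1.53), peroxisomal oxidation 4 and 8 of 20 (Hsd17b4 0.90, Phyh -1.69), branched and short chain oxidation 6 and 8 of 18 (Acat1 0.77, Bckdhb -0.96) and the carnitine list 2 and 4 of 9 (Aldh9a1 0.99, Crot -0.41). Thioesterases had 2 and 4 of 7 (Acot9 0.74, Acot11 -1.61), PPAR target and ketone body genes 3 and 3 of 10 (Oxct1 1.98, Vnn1 -5.64), lipolysis 0 and 4 of 10 (Plin3 -0.87) and mitochondrial fatty acid synthesis 4 and 2 of 10 (Ndufab1 1.41, Hsd17b8 -1.25).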

How the data were processed

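The authors deposited 1 table per library that holds, per the file headers, read counts over the exons of each feature and the RPKM derived from them. Coordinates are on mm10 (submitters' processing notes). Aligner and counter: not given in the sources used here. Features of 1 gene on alternate scaffolds were added up. The counts were tested with edgeR 4.0.16 in R 4.3.3 (TMM, filterByExpr, quasi-likelihood F test on group alone, each comparison on its own libraries), with Benjamini-Hochberg adjustment over all genes tested. The SE is the log2 fold change divided by the root of F. CPM uses 1 TMM scaling over all 15 libraries, exon lengths come from the RPKM values, and no fold is given for Ppara. GC content came from GENCODE transcripts. Members and lists were chosen with earlier results of these data known, and the 16 mitosis genes were added after the data were seen. All 30 members are accounted for, and in each wider list the called gene with the smallest p in each direction is named, with Acot1, Cpt1b, Acaa1b and Utp14b added as relatives or neighbours. Mmut, Hsd17b8 and Plin2 were matched to the names in the tables. No libraries were near copies (chi-square per gene of at least 4.7 between replicates). On simulated data, 63% of 2-fold changes and 45% of 1.5-fold changes were called for the 5-FU comparison (13384 genes). The shares were 85% and 58% for the nifedipine comparison (12807 genes) and 64% and 38% for Control against Untreated (13520 genes). False calls were 6 of 114, 8 of 151 and 2 of 104 genes called. Far fewer genes were changed there than were called in the data, and they were drawn at random from all genes tested. The shares therefore do not tell how many changes would be found among the members.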

Additional observations from a re-analysis of the deposited data

Results flagged for a closer look

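In groups of 4 libraries, 87 sets of a member and a group were checked for a library far from the other 3, and 3 (3.45%) were, against about 1 in 20 by chance. Acsl5 in 5-FU day4 1 was at 189 CPM, with the others at 164 to 165 CPM. Acads in 5-FU day4 1 was at 19.2 CPM, with the others at 15.5 to 16.03 CPM. Etfb in Untreated 4 was at 25.3 CPM, with the others at 28.3 to 28.7 CPM.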

How the results depend on the processing

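The called members that passed with the same sign under all alternatives numbered 13 of 20 after 5-FU (17 alternatives), 11 of 16 with nifedipine and 13 of 23 in Control against Untreated (15 each). With libraries scaled by the RPKM read total, members lower fell in number to 4 after 5-FU and 3 in Control against Untreated. With correction for exon length and GC content, 9 members were higher and 9 lower after 5-FU, 5 and 9 with nifedipine and 11 and 7 in Control against Untreated, where Acadm (-0.34), Echs1 (-0.02), Hadh (-0.12), Decr1 (-0.25) and Eci2 (-0.11) turned sign, for which the cause was not tested. Leaving out 1 replicate at a time gave 10 to 11 higher and 7 to 8 lower after 5-FU, 4 to 6 and 8 to 10 with nifedipine, and 17 to 18 and 4 to 5 in Control against Untreated. Correlations of the deviations of same-numbered libraries were -0.02 to 0.13 after 5-FU and 0.00 to 0.06 in Control against Untreated. With nifedipine they were 0.20, 0.18 and -0.01 for numbers 1, 2 and 3, where differently numbered pairs ran from -0.17 to 0.14. After 5-FU differently numbered pairs ran from -0.23 to 0.16. Whether same-numbered libraries belong together was not tested. The numbers were not taken as pairs, since not every correlation was over 0.1. With the replicate number as a block, 12 and 8 members were called after 5-FU, 5 and 10 with nifedipine (Acsl1 at an adjusted p of 0.115) and 17 and 4 in Control against Untreated (Crat at 0.0801 and Acad11 at 0.0505). The summed level per kilobase of Untreated, 5-FU day4, Control and Nifedipine was 573, 650, 747 and 710 without TMM, and 146, 201, 279 and 258 as deposited RPKM, in the same order of groups as with TMM. The length and GC correction was not applied to these sums. Ppara was too low in reads for its level to be compared.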
